A study of Mus musculus with 6 samples.

Results

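The genes described here are 10 secreted or surface effectors of CD8 T cells: the cytokines interferon gamma (Ifng), interleukin 10 (Il10), tumour necrosis factor (Tnf), lymphotoxin alpha (Lta) and lymphotoxin beta (Ltb), the death ligand Fas ligand (Fasl), and the chemokines Ccl3, Ccl4, Ccl5 and Xcl1. They were taken by name, with earlier results of these data known, and all 10 were found among the 25655 genes listed. Their RNA was measured in CD8 T cells from spleens of C57BL/6 females, grown in culture and labelled Utx knockout (Utx KO) or wild type (WT), with 3 libraries of each genotype. Utx is the protein of Kdm6a, a demethylase that removes a repressive mark from histones. Cells of both genotypes had been enriched as naive, stimulated for 2 days in interleukin 2 (10 ng/ml) by coated antibodies, 1 µg/ml against CD28 and 3 µg/ml against TCR-beta, and then kept for 3 days in interleukin 2 with no further receptor stimulation. The sources used here give neither the part of Kdm6a that was deleted, nor a Cre driver, nor the age of the mice. They call the libraries biological replicates without saying that each came from its own animal, so the p-values given are relative to the spread among these 6 samples, which may be technical.

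A killer T cell acts on its surroundings through such molecules. Interferon gamma arms macrophages and raises antigen presentation, tumour necrosis factor and the lymphotoxins act through receptors of the TNF family, and Fas ligand on the T-cell surface triggers death of cells that carry Fas. Ccl3, Ccl4 and Ccl5 attract other leukocytes, Xcl1 attracts dendritic cells that carry Xcr1, and interleukin 10 restrains inflammation. Transcripts of many of these genes are short-lived and are made in bursts after T-cell receptor stimulation, so cells resting in interleukin 2 are known to hold few of them.

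The values are CPM, counts of a gene scaled so that all listed genes of a library add up to the same total. The libraries read only 3' ends of transcripts, so levels of different genes can be set side by side without a correction for length. Totals ran from 1619085 to 2517655 reads in Utx KO and from 1827703 to 2529113 reads in WT libraries. A gene with no read could still lie at up to 1.19 to 1.85 CPM in a Utx KO library and 1.19 to 1.64 CPM in a WT library, a limit of 3 reads that covers counting error only. Kdm6a itself was at 27.8, 39.4 and 31.5 CPM in Utx KO and 44.3, 49.3 and 53.6 CPM in WT libraries. It fell by 0.57 on the log2 scale (Benjamini-Hochberg adjusted p = 0.0123 in a limma test across genes) and was called in 11 of 15 alternatives, although a 3' read outside the deleted part does not check the genotype. The CD8 chains Cd8a and Cd8b1 were found in every library, and 6 of 9 markers of CD8 T cells had a summed level of 1916 to 1970 CPM in Utx KO and 1612 to 1729 CPM in WT; the other 3, the constant genes Trac, Trbc1 and Trbc2, were listed at 0. Of the 6, 3 rose in Utx KO and none fell, beside 10.8% called of all genes tested. The 3 were Cd3d (log2 fold change 0.30, adjusted p = 0.000224), Cd3e (0.32, adjusted p = 0.0085) and Cd8b1 (0.19, adjusted p = 0.0318, limma). Cd3d was called in 15 of 15 alternatives, Cd3e in 14 and Cd8b1 in 10. The part of the rise of these 3 genes in the results on the effectors was not tested.

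Promoter sequence was available for 7 of the 10 genes, and the 4 shown are those of genes that passed the test below, of which Ifng, Fasl and Lta fell and Ltb rose. They come from RefSeq (GRCm38.p6), run 5′ to 3′ on the strand of the gene and span 250 bases before to 50 bases after the transcript start. Capitals mark GGAAA, the core letters bound by NFAT factors, or TTTCC, the same letters on the other strand. The windows are chr10:118440796-118441095 (plus strand) for Ifng, chr1:161788446-161788745 (minus) for Fasl, chr17:35205302-35205601 (minus) for Lta and chr17:35194257-35194556 (plus) for Ltb.
Ifng: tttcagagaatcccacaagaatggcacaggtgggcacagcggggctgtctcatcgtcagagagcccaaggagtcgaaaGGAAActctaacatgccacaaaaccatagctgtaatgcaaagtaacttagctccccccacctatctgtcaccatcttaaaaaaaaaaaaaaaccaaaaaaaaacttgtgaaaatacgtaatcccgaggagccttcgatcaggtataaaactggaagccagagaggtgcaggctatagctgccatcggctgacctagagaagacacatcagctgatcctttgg
Fasl: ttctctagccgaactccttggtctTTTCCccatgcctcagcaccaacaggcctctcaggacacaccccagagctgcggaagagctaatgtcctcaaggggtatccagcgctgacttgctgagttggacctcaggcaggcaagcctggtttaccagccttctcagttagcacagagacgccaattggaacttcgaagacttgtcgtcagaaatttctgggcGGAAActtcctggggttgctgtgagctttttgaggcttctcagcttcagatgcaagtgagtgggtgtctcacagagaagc
Lta: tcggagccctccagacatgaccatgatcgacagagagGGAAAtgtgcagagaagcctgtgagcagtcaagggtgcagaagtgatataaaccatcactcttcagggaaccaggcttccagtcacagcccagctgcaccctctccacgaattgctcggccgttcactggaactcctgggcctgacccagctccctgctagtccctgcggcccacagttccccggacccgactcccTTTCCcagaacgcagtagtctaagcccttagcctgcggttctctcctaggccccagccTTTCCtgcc
Ltb: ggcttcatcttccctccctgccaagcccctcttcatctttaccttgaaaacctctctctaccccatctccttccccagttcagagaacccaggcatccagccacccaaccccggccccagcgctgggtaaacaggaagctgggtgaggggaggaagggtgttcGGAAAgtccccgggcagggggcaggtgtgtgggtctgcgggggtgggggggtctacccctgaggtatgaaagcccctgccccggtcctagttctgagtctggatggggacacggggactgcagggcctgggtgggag
GGAAA occurred on either strand 1 time in the Ifng window, 2 times in that of Fasl, 3 times in that of Lta and 1 time in that of Ltb. It was present in all 7 windows available, but also in 61.3% of 32851 RefSeq promoter windows of the same length. TGACTCA, the letters of AP-1 sites, was in none of the 7 windows and in 5.20% of all windows. TCACACC, a T-box sequence, was in 1 of the 7, that of Xcl1, and in 3.98% of all windows. These are matches of letters in short windows, and they carry no statement on binding.

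Of the 10 effectors, 9 had at least 1 CPM in 3 or more libraries and were tested with limma on log2(CPM + 1), over 10590 genes. Among these 9, 5 fell in Utx KO (Il10, Ccl5, Ifng, Fasl and Lta), 1 rose (Ltb) and 3 did not pass (Tnf, Xcl1 and Ccl4), at a Benjamini-Hochberg adjusted p under 0.05. Of all genes tested, 10.8% were called in either direction, 5.51% as falls and 5.28% as rises. Groups did not overlap for 6 of the 9, against 26.5% of all genes tested. The median log2 fold change of the 9 was −0.49, and that of all tested genes was 0.01. Il10 entered the test through its WT libraries alone, since no Utx KO library reached 1 CPM. The genes were also chosen with earlier results of these data known, so the counts and the median over tested members are descriptions. Fewer cells that make a transcript and less transcript per cell cannot be told apart in such bulk libraries.

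**Figure D1:**
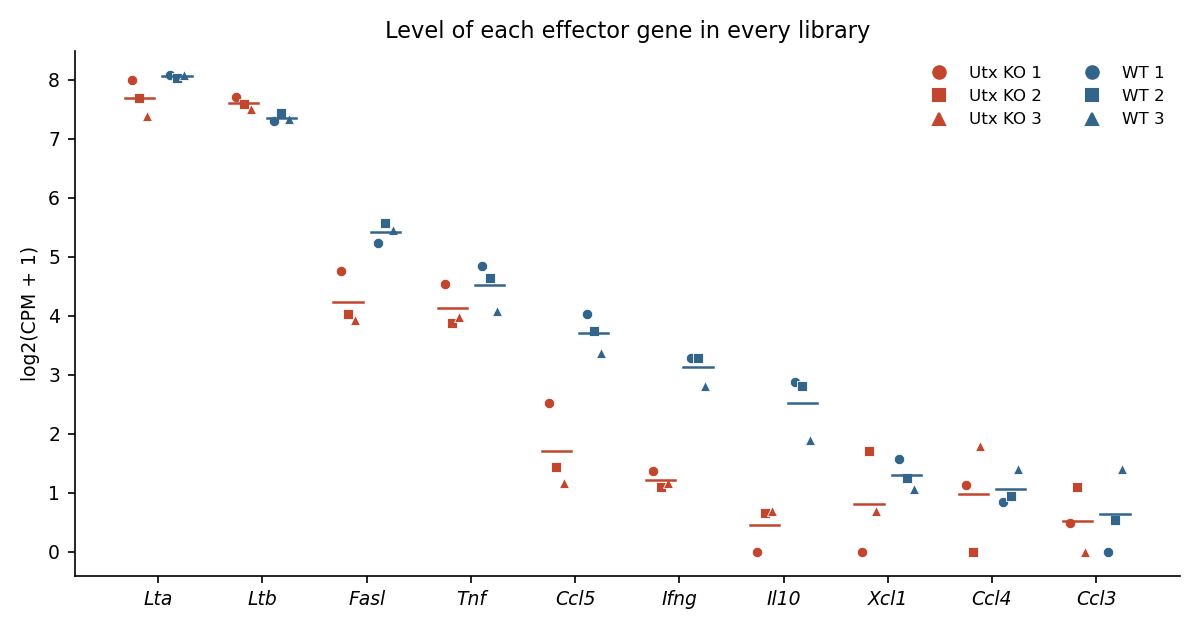
Level of each effector gene in every library, as log2(CPM + 1), with Utx KO libraries (red) left of WT libraries (blue) and a line at each group's mean. Lta, Fasl, Ccl5, Ifng and Il10 have all 3 Utx KO points below all 3 WT points, Ltb has them above, and the points of Xcl1, Ccl4 and Ccl3 are mixed near 0.

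Interferon gamma (Ifng, ENSMUSG00000055170, chromosome 10, 118441046 to 118445892 in GRCm38, promoter shown above) was scarce at this time in both genotypes. It had 1.59, 1.14 and 1.24 CPM in the Utx KO libraries, from 4, 2 and 2 reads, against 8.70, 8.76 and 6.02 CPM in the WT libraries, from 22, 19 and 11 reads. Every Utx KO library lay below every WT library, and the spread among the Utx KO libraries was small. The mean was 5.92-fold lower in Utx KO (1.32 ± 0.236 CPM, against 7.82 ± 1.56 CPM in WT; SD, n = 3 each). On the log2 scale Ifng fell by 1.91 (SE 0.35; adjusted p = 0.000527 in limma). The fall was called under all 15 alternative settings, with a log2 fold change of −1.01 at a pseudocount of 5. An exon of the gene model Gm49751 overlaps Ifng on the same strand, although none of the 50-base pieces of the last 300 bases of Ifng transcripts occurred in another gene.

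Interleukin 10 (Il10, ENSMUSG00000016529, chromosome 1, 131019845 to 131024974) was almost undetected in Utx KO. The libraries had 0, 1 and 1 reads in Utx KO, against 16, 13 and 5 reads in WT, where these stand for 6.33, 5.99 and 2.74 CPM. No Utx KO library reached 1 CPM, and the lowest WT library was still above all of them. Pooled over libraries, 2 reads in Utx KO and 34 in WT came to 0.0652 times the WT level (exact 95% interval for counting error, 0.00759 to 0.254). On the log2 scale Il10 fell by 2.08 (SE 0.43; adjusted p = 0.00187 in limma). With so few reads the size depended on the pseudocount, from −0.87 at 5 to −3.72 at 0.1, and was −3.87 with DESeq2; the call held in the 12 alternatives that tested the gene.

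The receptor chain Il10ra, through which the cells themselves sense interleukin 10, also fell. It had 24.2, 19.4 and 24.1 CPM in Utx KO and 32.8, 40.1 and 38.3 CPM in WT libraries (log2 difference −0.69, SE 0.16; adjusted p = 0.00586 in limma). The shared second chain Il10rb was at 30.4 ± 6.75 CPM in Utx KO and 29.9 ± 4.85 CPM in WT (SD, n = 3 each; adjusted p = 0.980). The interferon gamma receptor chains did not pass either, with Ifngr1 at 315 ± 15.7 CPM in Utx KO and 338 ± 21.9 CPM in WT (SD, n = 3 each; adjusted p = 0.403). Ifngr2 was at 11.4 ± 1.32 CPM in Utx KO and 7.45 ± 1.62 CPM in WT (adjusted p = 0.202, limma), with each Utx KO library above each WT library. Of the 4 receptor chains for these cytokines, only Il10ra passed the test, beside 10.8% called of all genes tested.

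Fas ligand (Fasl, ENSMUSG00000000817, chromosome 1, 161780689 to 161788495, promoter shown above) was the third most abundant of the 10 by mean level in both genotypes. It had 26.2, 15.4 and 14.2 CPM in Utx KO libraries, from 66, 27 and 23 reads, against 36.8, 46.5 and 42.7 CPM in WT libraries, from 93, 101 and 78 reads. Utx KO replicate 1 stood above the other two of its group, and still below the lowest WT library. The mean was 2.26-fold lower in Utx KO, a log2 difference of −1.18 (SE 0.20; adjusted p = 0.000164 in limma). The call of Fasl held in all 15 alternatives, with log2 fold changes from −1.44 to −1.02. Its receptor Fas, which kills when bound and is carried by activated T cells themselves, was at 4.37, 5.14 and 6.79 CPM in Utx KO and 9.88, 7.83 and 7.11 CPM in WT libraries; these groups did not overlap, but Fas did not pass (adjusted p = 0.301, limma). The adaptor Fadd, which joins Fas to caspases, fell to 8.06 ± 2.70 CPM in Utx KO, against 15.2 ± 2.37 CPM in WT (SD, n = 3 each; log2 fold change −0.88, limma adjusted p = 0.0343), a call lost in 5 of 15 alternatives.

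Ccl5 (ENSMUSG00000035042, chromosome 11, 83525778 to 83530518) was the only chemokine of the 4 that differed past the threshold. It had 4.77, 1.71 and 1.24 CPM in Utx KO, from 12, 3 and 2 reads, against 15.4, 12.4 and 9.30 CPM in WT, from 39, 27 and 17 reads. The 3 Utx KO libraries were below the 3 WT libraries, with Utx KO replicate 1 the highest of its group. The mean was 4.82-fold lower in Utx KO (log2 difference −2.01, SE 0.36; adjusted p = 0.000351 in limma), and the value was −1.21 at a pseudocount of 5.

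Ccl3, Ccl4 and Xcl1, chemokines that CD8 T cells release soon after stimulation, were near the limit of detection in both genotypes. Ccl3 had 1, 2 and 0 reads in Utx KO and 0, 1 and 3 reads in WT libraries, and was too low to test (pooled Utx KO level 0.831 times that of WT, exact 95% interval 0.122 to 4.91). Ccl4 had 3, 0 and 4 reads in Utx KO and 2, 2 and 3 reads in WT libraries. Xcl1 had 0, 4 and 1 reads in Utx KO and 5, 3 and 2 reads in WT libraries. In none of these 3 genes were the genotypes apart, and the ranges of their levels overlapped each other too. The 95% intervals of the log2 fold change ran from −1.12 to 0.95 for Ccl4 (limma adjusted p = 0.954) and from −1.51 to 0.52 for Xcl1 (limma adjusted p = 0.616). For Xcl1 the log2 fold change was −0.49, and ran from −0.95 without Utx KO replicate 2 to −0.09 without Utx KO replicate 1. Ccl3 and Ccl4 lie 13228 bases apart on chromosome 11, and 117325 bases separate Ccl5 from Ccl3. A gene model on the opposite strand, Gm20743, overlaps exons of Xcl1, and strand treatment of the counts is not given in the sources used here.

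**Figure D2:**
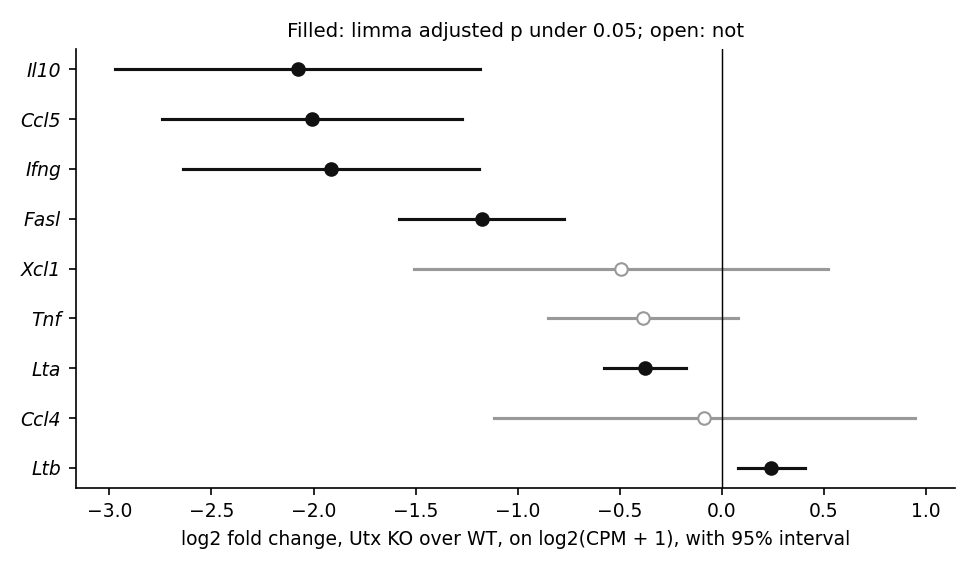
Log2 fold change of the 9 tested effector genes, Utx KO over WT on log2(CPM + 1), with 95% intervals from limma; filled points have an adjusted p under 0.05. Il10, Ccl5 and Ifng lie between −2.08 and −1.91, Fasl at −1.18 and Lta at −0.38, while Ltb is the only gene right of 0.

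The lymphotoxin genes were by far the most abundant of the 10, and they moved in opposite directions. Lymphotoxin alpha is secreted on its own as a trimer that binds TNF receptors, and joins lymphotoxin beta in a membrane complex that binds the receptor Ltbr on stromal and myeloid cells. Lta (ENSMUSG00000024402, chromosome 17, 35203165 to 35205351, promoter shown above) had 255, 205 and 167 CPM in Utx KO libraries, against 272, 261 and 269 CPM in WT libraries. The WT libraries were close to each other, while the Utx KO libraries were spread and all lower. On the log2 scale Lta fell by 0.38 (SE 0.10; adjusted p = 0.0125 in limma). Over 15 alternatives its adjusted p ran from 5.51e-05 to 0.317, and 2 of them ended the call. These were DESeq2, which gave the highest p, and leaving out Utx KO replicate 3, where the log2 difference was −0.22 (adjusted p = 0.111 in limma).

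Ltb (ENSMUSG00000024399, chromosome 17, 35194439 to 35196320, promoter shown above) had 209, 191 and 180 CPM in Utx KO libraries, against 156, 172 and 161 CPM in WT libraries. Each Utx KO library was above each WT library. The rise was small, with a mean of 194 ± 14.4 CPM in Utx KO and 163 ± 7.99 CPM in WT (SD, n = 3 each; log2 fold change 0.24, SE 0.08, limma adjusted p = 0.0476). It was just inside the threshold and was lost in 9 of 15 alternatives, with the sign kept in all of them (adjusted p from 0.0280 to 0.193). Ltb read counts divided by those of Lta were 0.821, 0.933 and 1.08 in Utx KO libraries and 0.575, 0.659 and 0.600 in WT libraries. This ratio within a library does not depend on scaling, and its ranges did not overlap; it was chosen after the values were seen and has no test. Lta was above Ltb in every WT library, with ranges apart, while in Utx KO the ranges overlapped and replicate 3 had Ltb above Lta. The receptor Ltbr was listed at 0 in all 6 libraries.

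**Figure D3:**
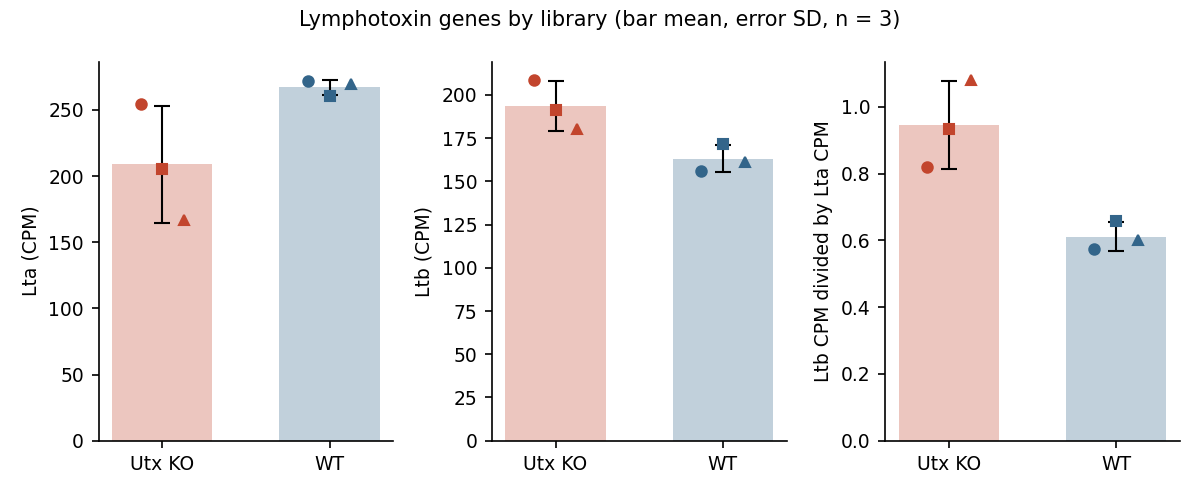
Lta and Ltb levels (CPM) and the ratio of Ltb to Lta in each library, with Utx KO (red) left of WT (blue); bars are means, error bars SD (n = 3), and symbols replicates 1 (circle), 2 (square) and 3 (triangle). Lta is lower and Ltb higher in all 3 Utx KO libraries, and the ratio is 0.821 to 1.08 in Utx KO and 0.575 to 0.659 in WT.

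Tumour necrosis factor, whose gene lies between those of the lymphotoxins, did not pass. Tnf (ENSMUSG00000024401, chromosome 17, 35199381 to 35202007) had 22.2, 13.7 and 14.8 CPM in Utx KO libraries, against 27.7, 24.0 and 15.9 CPM in WT libraries. The groups overlapped, because Utx KO replicate 1 was above WT replicate 3. The log2 fold change was −0.39, with a 95% interval from −0.85 to 0.08 (limma adjusted p = 0.331), so a fall as large as that of Lta is inside the interval, and one as large as that of Fasl is not. Both genes carry overlapping AUUUA repeats in the 3′ end of the messenger RNA, a letter pattern that proteins of the Zfp36 family bind to shorten the life of a transcript. These sites, read from GENCODE M21 transcripts, show the longest repeat in capitals.
Tnf: ttatttattATTTATTTAttatttatt
Lta: agttaagttATTTATTTAtagagaata
The site begins 438 bases after the stop codon in Tnf and 316 bases after it in Lta. Among the 10 effectors, only Tnf and Lta held such a run of 9 letters in the 3′ untranslated region, while 2.52% of 10458 tested genes held it in their first 887 bases, the longest such region of the 10. The plain 5-letter repeat was found 8 times in Tnf, 6 times each in Ifng and Il10, 5 times in Ccl3, 3 times in Lta, 2 times in Ccl4, 1 time each in Fasl and Xcl1, and in neither Ltb nor Ccl5. It is common, at 56.6% of tested genes in that window. Of 15 tested RNA-binding regulators of cytokine transcripts, 1 fell and none rose, beside 10.8% called of all genes tested. Zfp36l2 fell to 152 ± 11 CPM in Utx KO, against 183 ± 14.8 CPM in WT (SD, n = 3 each, log2 fold change −0.27, limma adjusted p = 0.0382). That call was lost in 7 of 15 alternatives.

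The TNF receptors did not move together. Tnfrsf1b, the receptor that activated T cells use to sense tumour necrosis factor, had 60.8, 68.5 and 59.3 CPM in Utx KO libraries and 104, 102 and 117 CPM in WT libraries (log2 difference −0.77, SE 0.10; adjusted p = 1.24e-05 in limma). Tnfrsf1a, the receptor with a death domain, was at 29.4 ± 4.24 CPM in Utx KO and 28.1 ± 1.38 CPM in WT (SD, n = 3 each; adjusted p = 0.896, limma). Downstream of these receptors, Birc2, a ubiquitin ligase that protects from death, rose to 48.9 ± 5.59 CPM in Utx KO, against 32.3 ± 5.41 CPM in WT (SD, n = 3 each; log2 fold change 0.59, adjusted p = 0.0104, limma). The kinase Ripk1 fell by 0.39 on the log2 scale (limma adjusted p = 0.0406), and the interferon receptor kinase Jak1 fell by 0.23 (limma adjusted p = 0.00463). The call was lost in 3 of 15 alternatives for Birc2 and in 7 of 15 for Ripk1. These and Fadd were the 4 called of 24 tested signalling genes, 3 lower and 1 higher, beside 10.8% called of all genes tested.

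Neighbouring genes were compared because Lta, Tnf and Ltb lie side by side, with gaps of 1157 bases between Tnf and Lta and 3060 bases between Ltb and Tnf. Of 12 other tested genes within 100 kb of any of the 3, only 1 was called, no more than the 10.8% called of all genes tested. This was Ly6g5b, which encodes a protein of the Ly6 family. It had 2.38, 1.14 and 3.09 CPM in Utx KO libraries, against 12.7, 11.5 and 17.5 CPM in WT libraries (log2 fold change −2.25, limma adjusted p = 3.18e-05). The other 11 lay between −0.25 and 0.34 on the log2 scale and none passed. Around Ccl3 and Ccl4, Ccl5, Fasl and Il10, 1 neighbour each was tested, with log2 fold changes from −0.28 to −0.07 and no call.

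**Figure D4:**
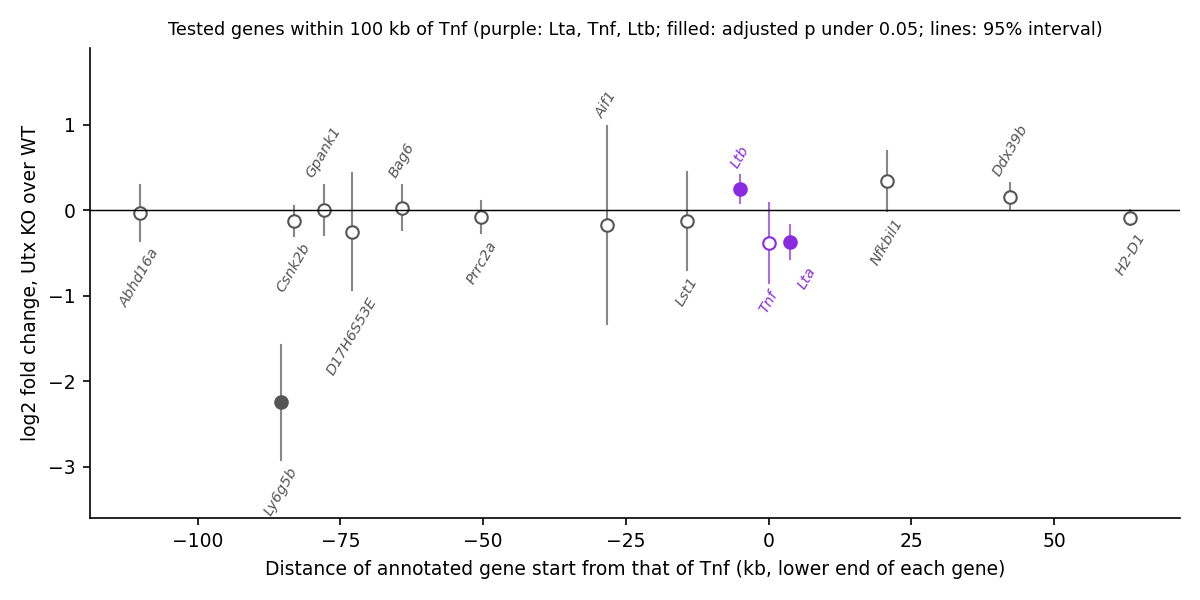
Log2 fold change (Utx KO over WT) of the tested genes within 100 kb of Tnf, by distance of their annotated start from that of Tnf in kb; lines are 95% intervals, filled points have an adjusted p under 0.05, and Lta, Tnf and Ltb are purple. Ly6g5b at −2.25 is the called neighbour, and Ltb lies above 0 while Tnf and Lta lie below.

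Levels of the 10 genes spanned from Lta, at 209 ± 44.0 CPM in Utx KO and 267 ± 5.68 CPM in WT, to under 1 CPM on average for Ccl3 in both genotypes and for Xcl1 and Il10 in Utx KO. In WT the order by mean was Lta, Ltb, Fasl, Tnf, Ccl5, Ifng, Il10, Xcl1, Ccl4 and Ccl3, and the ranges of neighbours in that order were apart down to Ifng. In Utx KO the same 5 genes led, but Lta overlapped Ltb, Fasl overlapped Tnf, and from Ccl5 downward every neighbour overlapped the next. Summed over the 10 genes, the level was 382 to 520 CPM in Utx KO and 512 to 533 CPM in WT libraries, and these ranges overlapped. Lta and Ltb held 89.2 to 91.7% of that sum in Utx KO and 81.2 to 84.2% in WT. The other 8 genes summed to 56.4, 36.0 and 35.2 CPM in Utx KO libraries, against 97.7, 100.5 and 81.0 CPM in WT libraries.

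The order of libraries within a genotype is given here as a description. Some library must be highest for each gene, several of these genes had only a few reads, and the orders were not compared with those of all genes. Utx KO replicate 1 was the highest of its group for 6 of the 10 genes (Ccl5, Fasl, Ifng, Lta, Ltb and Tnf), and it was also the deepest Utx KO library, with 2517655 reads against 1750802 and 1619085 in replicates 2 and 3. That library was the lowest of its group for Il10 and Xcl1. WT replicate 3, the shallowest WT library with 1827703 reads, was the lowest of its group for Ccl5, Ifng, Il10, Tnf and Xcl1, and the highest for Ccl3 and Ccl4. WT replicate 1, the deepest, was the highest for Ccl5, Il10, Lta, Tnf and Xcl1, and the lowest for Ccl3, Ccl4, Fasl and Ltb. Replicate 1 also stood apart in both genotypes for some early response genes, named after their values were seen. Egr1, a factor induced by T-cell receptor signals, had 62.0, 15.4 and 10.5 CPM in Utx KO libraries and 80.3, 13.8 and 10.9 CPM in WT libraries. Fos, Osm and Socs3 were likewise highest in replicate 1 of both. The part of depth or of this pattern in the effector levels was not tested. With single libraries left out, the log2 fold change of Tnf ran from −0.61 (without WT replicate 3) to −0.23 (without WT replicate 1) and it never passed. That of Lta was −0.53 without Utx KO replicate 1.

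Other secreted factors were mostly absent or did not pass. Of 31 further cytokine and chemokine genes, 13 were listed at 0 in all libraries, among them Il3, Il5, Il17a and Il21. Another 10 were tested, of which 2 fell and none rose, beside 10.8% called of all genes tested. Spp1 (osteopontin, a secreted adhesion protein and cytokine) had 5.16, 1.71 and 3.09 CPM in Utx KO libraries and 9.88, 12.4 and 9.85 CPM in WT libraries (log2 difference −1.51, SE 0.33; adjusted p = 0.00296 in limma). Ebi3, a subunit of interleukin 27 and interleukin 35, had 0 reads in Utx KO and 15 in WT. With 3 reads over the group as the limit, it was at least 4.51-fold lower in Utx KO (limma adjusted p = 0.0180), and its call was lost in 3 of 12 alternatives. Like Il10, Ebi3 entered the test through its WT libraries alone, so the count of falls in this list is a description. The median log2 fold change of the 10 was −0.13, also with Ebi3 set to that limit of 3 reads. Of 12 further TNF family ligands, 5 were tested and none passed (median −0.29). In both lists, levels near 1 CPM limit what could be seen.

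Among 33 transcription factors and regulators known to act on these genes, 29 were tested, with a median log2 fold change of −0.10. Of these, 6 fell, 4 rose (named in the closing observations) and 19 did not pass, while 5.51% of all genes tested fell and 5.28% rose. The list was chosen with earlier results of these data known, so these counts are descriptions. Maf, which drives Il10 in T cells, had 12.7, 14.3 and 8.03 CPM in Utx KO libraries, against 53.0, 68.2 and 54.7 CPM in WT libraries (log2 difference −2.26, SE 0.19; adjusted p = 9.53e-09 in limma). Prdm1 (Blimp-1), another factor that promotes Il10, fell to 16.1 ± 3.02 CPM in Utx KO, against 31.9 ± 3.12 CPM in WT (SD, n = 3 each; limma adjusted p = 0.000979). Eomes, a T-box factor that promotes Ifng in CD8 T cells, fell to 189 ± 13.3 CPM in Utx KO, against 269 ± 11.1 CPM in WT (SD, n = 3 each; limma adjusted p = 2.33e-05). Tbx21, another T-box factor of the list, did not pass, at 27.6 ± 5.85 CPM in Utx KO and 23.1 ± 1.12 CPM in WT (SD, n = 3 each, limma adjusted p = 0.519). Runx3 (limma adjusted p = 0.651) and Stat4 (limma adjusted p = 0.473) did not pass either. Nfil3, a factor of cytokine-producing lymphocytes, fell to 46.6 ± 1.66 CPM in Utx KO, against 81.7 ± 10.3 CPM in WT (SD, n = 3 each; limma adjusted p = 4.67e-05). Of the NFAT genes, named after their values were seen, Nfatc1 fell by 0.43 (limma adjusted p = 0.00309) and Nfatc2 by 0.42 (limma adjusted p = 0.0477) on the log2 scale, and the call of Nfatc2 was lost in 9 of 15 alternatives. Nfatc3, the most abundant NFAT gene of the list, did not pass. It was at 305 ± 27.9 CPM in Utx KO and 327 ± 25.3 CPM in WT (SD, n = 3 each, limma adjusted p = 0.447). Whether any of these changes bears on the effector genes was not tested.

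Of 13 tested genes for secretion and shedding of such proteins, 2 fell and none rose. With 10.8% of all genes tested called in either direction, this count is a description. Stx11, a membrane fusion protein needed for release of cytotoxic granules, fell to 13.3 ± 3.12 CPM in Utx KO, against 29.7 ± 3.72 CPM in WT (SD, n = 3 each; limma adjusted p = 0.000498). Rab27a, a small GTPase that docks granules at the membrane, fell to 58.9 ± 4 CPM in Utx KO, against 81.2 ± 4.53 CPM in WT (SD, n = 3 each; limma adjusted p = 0.00637).

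**Figure D5:**
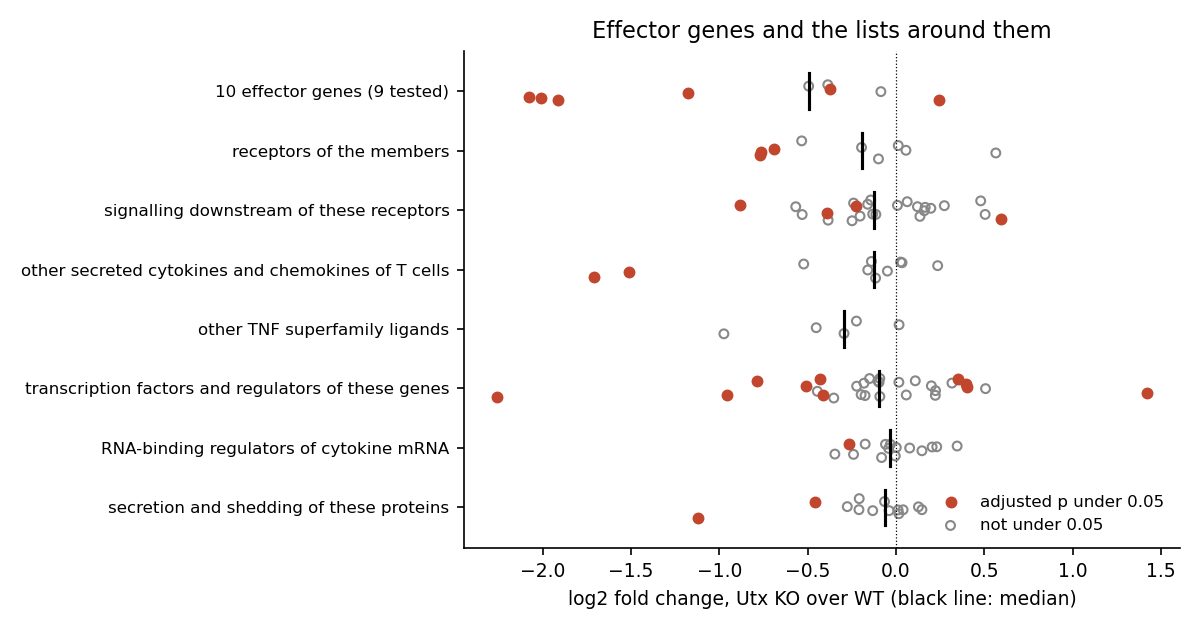
Log2 fold changes (Utx KO over WT) of the tested effector genes and of the tested members of each surrounding gene list; red points have an adjusted p under 0.05 and black lines are medians. The median of the effectors is −0.49, and those of the lists lie between −0.29 and −0.03.

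Several effectors are also made by other cells, so markers of those cells were read in the same libraries. Of 11 markers of macrophages, monocytes and neutrophils, 8 were at 0 in all libraries, Lyz2, Cd14 and Itgam among them. Their summed level was 7.55 to 12.4 CPM in Utx KO and 7.11 to 8.29 CPM in WT, most of it from Cd68. Of 6 markers of NK and innate lymphoid cells, Ncr1 and Klra8 were at 0, and the sum was 1.99 to 4 CPM in Utx KO and 10.1 to 14.2 CPM in WT. That difference was almost all Il1rl1, the receptor of interleukin 33, which activated CD8 T cells also carry (log2 fold change −2.06, limma adjusted p = 0.000614). For B and plasma cells, 6 of 8 markers were at 0 and the sum, nearly all Cd79b, was 0.571 to 1.85 CPM in Utx KO and 2.76 to 5.47 CPM in WT. The zeros of Ighm and Igkc, and of Trdc below, carry no information, since the constant genes Trac, Trbc1 and Trbc2 were also at 0 in these T cells. For CD4 and regulatory T cells, Cd4 was at 0 and the sum of 5 markers was 116 to 128 CPM in Utx KO and 124 to 141 CPM in WT, nearly all from Ctla4 and Ikzf4, which activated CD8 T cells express too; Foxp3 was at 7.31 ± 0.618 CPM in Utx KO and 9.35 ± 1.71 CPM in WT (SD, n = 3 each). Of 8 dendritic cell markers, Flt3, Clec9a and Siglech were at 0 and the sum was 9.14 to 14.8 CPM in Utx KO and 7.37 to 13.4 CPM in WT. That sum joins genes that differed in opposite directions, none of which passed. The class II gene H2-Aa had 17 pooled reads in Utx KO and 3 in WT (adjusted p = 0.0503, limma), and its partner chain Cd74 had 27 in Utx KO and 8 in WT (adjusted p = 0.0555, limma), with groups apart for both. H2-Aa entered the test through its Utx KO libraries alone, since no WT library reached 1 CPM, so its values are a description. Zbtb46, a dendritic cell factor, had 19 pooled reads in Utx KO and 48 in WT, with overlap (adjusted p = 0.108, limma). The part of these markers in the results on the effectors was not tested. Xcr1, the receptor of Xcl1, had 4 reads in Utx KO and 6 in WT. Of 6 markers of gamma-delta and NKT cells, 3 were in the table, Trdc and Sox13 were at 0 and Zbtb16 had at most 0.461 CPM. Of 6 markers of red cells, platelets and mast cells, 5 were at 0 and the sum was at most 0.618 CPM in any library.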

How the data were processed

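Messenger RNA was measured with QuantSeq 3' libraries from 500 ng of total RNA for 3 Utx KO and 3 WT samples, per the labels' protocols. The authors deposited CPM, in 1 table for each library, over 25655 Ensembl identifiers, and each column sums to the same total. The builds GRCm38 and mm10 are named in the submitters' processing notes; for the aligner, counter, filters and use of strand the sources used here give nothing. Dividing the deposited CPM values by the value of 1 read gave whole reads for 100% of values above 0 (tolerance 0.001 reads). Symbols were found for 25600 identifiers. Coordinates come from GENCODE M21 (GRCm38).

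The test was limma-trend (limma 3.58.1, R 4.3.3) on log2(CPM + 1), with no term but genotype, two-sided. It ran over the 10590 genes that reached 1 CPM in at least 3 libraries, with Benjamini-Hochberg adjustment and a threshold of 0.05. Such fold changes understate the change of low genes. Alternatives were pseudocounts of 0.1 and 5, no filter, a filter at 5 CPM, TMM scaling, edgeR 4.0.16 (1106 genes called), DESeq2 1.42.0 and limma-voom on the recovered reads, a replicate block, and leaving out each library. The tools were tested on simulated data. Replicates were compared by the chi-square of their reads divided by its degrees of freedom (1.33 to 2.06); all pairs differed beyond counting noise and all 6 libraries count separately. Intervals on pooled reads are exact conditional binomial (95%, scipy 1.17.1) and cover counting error only.

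The effector genes and the gene lists were chosen with earlier results of these data known. Named genes are all effectors, tested receptors and up to 4 called genes per list with the lowest adjusted p. Called neighbours within 100 kb and other markers above 10 CPM are named too. Nfatc1, Nfatc2, Nfatc3, Tbx21, Runx3, Stat4, Egr1, Fos, Osm and Socs3 were named after their values were seen. So were the markers below that level or of CD8 T cells and the genes of the closing observations. A result among the receptors is not reported here. All 50-base pieces of the last 300 bases of the effectors' protein-coding transcripts were searched in all other genes, and none was shared.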

Additional observations from a re-analysis of the deposited data

How the results depend on the processing

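Over 15 alternatives the 10 effectors gave 4 to 6 calls. Ifng, Il10, Ccl5 and Fasl kept direction and call wherever tested (Il10 in 12; the stricter filter, edgeR and limma-voom left out Il10, Ccl4 and Xcl1 as too low). For the rest the cause was not tested. Lta was lost with DESeq2 (−0.36) and ran from −0.53 to −0.22 when single libraries were left out. Ltb was lost at a pseudocount of 0.1 (0.24), with TMM (0.24), DESeq2 (0.25) and the replicate block (0.24), and ran from 0.19 to 0.29 with single libraries left out, where it kept its call only without Utx KO replicate 3. Ccl4 turned to 0.0074 at a pseudocount of 5 and 0.13 with DESeq2, and ran from −0.50 to 0.40 over left-out libraries. Over left-out libraries the sign of Tnfrsf1a (−0.024 to 0.17), Il10rb (−0.12 to 0.20), Xcr1 (−0.79 to 0.10) and Ctla4 (−0.020 to 0.13) also turned.

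Of all genes, 1142 were called; DESeq2 called 595 (333 fell, 262 rose), and leaving out single libraries 754 to 1042, with 754 (362 risen) without WT replicate 2; risen genes ran from 362 to 473. Same-numbered libraries did not deviate together (r of 0.0060, −0.0027 and −0.0096), none over 0.1 as pairing required, although some early response genes were highest in replicate 1 of both genotypes. The replicate block called 1065 genes. Kdm6a lost its call in 4 of 15 alternatives (adjusted p from 0.0056 to 0.0708). Reads limit Ccl3, Ccl4 and Xcl1, with at most 5 in a library.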

Other observations

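Transcription factors of the same list that rose in Utx KO numbered 4 of 29 tested, while 5.28% of all genes tested rose. They were named after their values were seen. Gata3, a factor of type 2 cytokine genes, was at 80.6 ± 5.52 CPM in Utx KO and 62.9 ± 3.77 CPM in WT (SD, n = 3 each; log2 fold change 0.35, limma adjusted p = 0.0354). Rora, a retinoid-related orphan receptor, was at 71.4 ± 6.06 CPM in Utx KO and 54.0 ± 1.64 CPM in WT (SD, n = 3 each; log2 fold change 0.39, limma adjusted p = 0.0247). Stat5b, which carries the signal of interleukin 2, was at 65.0 ± 9.43 CPM in Utx KO and 48.7 ± 4.41 CPM in WT (SD, n = 3 each; log2 fold change 0.40, limma adjusted p = 0.0436). Nr4a1, an early gene of T-cell receptor signalling, had 21 pooled reads in Utx KO and 6 in WT (log2 fold change 1.42, limma adjusted p = 0.0356). Nr4a1 had 1 WT library at 1 CPM or more, and its log2 fold change ran from 0.56 to 2.72 over 12 alternatives. The calls were lost in 6 of 15 alternatives for Gata3, 6 of 15 for Rora, 7 of 15 for Stat5b and 7 of 12 for Nr4a1. DESeq2 called none of the 4.

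Within each library, Fasl reads divided by Lta reads gave 0.103, 0.0752 and 0.0852 in Utx KO and 0.135, 0.178 and 0.159 in WT, with no overlap, while Tnf reads divided by Lta reads gave 0.0874, 0.0669 and 0.0889 in Utx KO and 0.102, 0.0919 and 0.0589 in WT, which overlapped. Both ratios were picked with the values in view and were not tested.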
